A study of Mus musculus with 42 samples.

Results

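The vacuolar H+-ATPase (V-ATPase) genes were followed through kidneys that had lost Tsc2, Tfeb or both, with and without rapamycin. Members were taken by gene name from the count and FPKM tables of 3 mouse cohorts, which gave 34 of 54532 genes, and all 34 had enough reads to be tested in every cohort. They comprised 14 widely expressed core subunits (6 of the membrane sector V0 and 8 of the cytosolic sector V1), 5 isoforms of renal intercalated cells, the macrophage and osteoclast isoform Tcirg1, 2 tissue-restricted isoforms, 2 accessory subunits and 10 assembly or regulatory factors. FPKM, a read count scaled to gene length and library size, is a level per length of transcript and is the scale of every level given here.

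The V-ATPase couples ATP hydrolysis by V1 to proton transport through the c ring and subunit a of V0, and it acidifies lysosomes, endosomes and secretory vesicles in all cells. Several subunits exist as paralogs. In the intercalated cells of the collecting duct a set of isoforms forms pumps that reach the plasma membrane and secrete acid or bicarbonate. On lysosomes the V-ATPase also binds Ragulator and the Rag GTPases, which recruit mTORC1, and many V-ATPase genes carry CLEAR motifs, the sites read by the transcription factor TFEB and its relatives.

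RNA was measured by poly-A sequencing of whole kidneys from C57BL/6 mice kept on PicoLab diet, with 3 libraries in each of 14 groups. In the first cohort, CaggCreERT2, a tamoxifen-inducible Cre active in the whole body, was induced through the milk of tamoxifen-treated mothers, and kidneys were taken at P30. Its groups were wild type (CaggCreERT2+; Tsc2+/+, also exposed to tamoxifen), Tsc2 KO (Tsc2 fl/fl), Tfeb KO (Tfeb fl/fl) and Tsc2+Tfeb DKO (both floxed), called control, Tsc2 KO, Tfeb KO and DKO below. In the second cohort KspCre, driven by the Cadh16 promoter in tubular epithelium, deleted the same alleles without drug, the controls carried no Cre, and kidneys were taken at P50. In the third cohort KspCre control, Tsc2 KO and DKO mice received vehicle or rapamycin, an mTORC1 inhibitor, at 1 mg/kg by intraperitoneal injection 3 times per week for 11 injections from day 25, and kidneys were taken at P50. The labels give the cell type as mixed, so cells that KspCre does not reach remained in every KspCre library, and in such bulk samples fewer cells of a type and less RNA per cell cannot be told apart.

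Library totals ran from 14926050 to 22807605 counts, with a median of 17802376. In the CaggCreERT2 cohort 4 libraries bore different names in the count table and the FPKM table, 2 of them with a different genotype. Groups here follow the FPKM table, and the count of called members in each CaggCreERT2 comparison is also given under the names of the count table. Of those 2 libraries, the one named Tfeb KO in the FPKM table and DKO in the count table had 10.2 FPKM of Tsc2, and the one named the other way had 5.26 FPKM. The other CaggCreERT2 control and Tfeb KO libraries lay between 9.05 and 10.6 FPKM of Tsc2 and the other Tsc2 KO and DKO libraries between 4.06 and 5.64 FPKM. By their Tsc2 level both libraries thus lay with the genotype named in the FPKM table. Counts under the count table's names place them in groups that this level did not match. Mean Tsc2 fell from 10.3 ± 0.445 (SD, n = 3) in control to 4.25 ± 0.264 FPKM in Tsc2 KO kidneys of the CaggCreERT2 cohort, from 8.93 ± 0.289 to 3.91 ± 0.419 FPKM in the untreated KspCre cohort and from 9.35 ± 0.662 to 4.06 ± 0.357 FPKM under vehicle. Tfeb in Tfeb KO kidneys had log2 fold changes of -0.80 ± 0.23 (SE; CaggCreERT2, adjusted p = 0.394) and -0.33 ± 0.20 (KspCre, adjusted p = 0.627) relative to control, which did not pass the test. In DKO kidneys relative to control they were -1.08 ± 0.23, -0.88 ± 0.20 and, under vehicle, -0.66 ± 0.19 (adjusted p = 0.0111, 0.041 and 0.0466). Counts of the whole gene may include exons outside the deleted part, so these values are a limited check of the deletion. Xist, transcribed in females, was at most 0.00853 FPKM in the 3 CaggCreERT2 controls and between 19.1 and 57.5 FPKM in the 3 Tfeb KO kidneys of that cohort, so sex and genotype cannot be told apart in that comparison. The CaggCreERT2 Tsc2 KO libraries had 6.70, 0.0208 and 8.84 FPKM of Xist and 0, 10.9 and 0 FPKM of the Y-linked Ddx3y, against 8.73 to 11.9 FPKM of Ddx3y in the controls, so sex also differed between those groups in part. The DKO libraries of that cohort had 0.0123, 0 and 13.9 FPKM of Xist and 11.1, 9.31 and 0 FPKM of Ddx3y. Sex thus also differed in part between DKO kidneys and both the control and the Tsc2 KO kidneys. All KspCre libraries had between 10.4 and 33.0 FPKM of Xist and at most 0.0224 FPKM of Ddx3y. The CaggCreERT2 and KspCre cohorts therefore differed in sex in part, beside age and Cre. Kidney-defining genes were present, with 8 proximal tubule markers summing to between 1786 and 2216 FPKM in all control groups.

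In control kidneys the members covered a wide range of FPKM. Among the core subunits, Atp6v1g1 (subunit G1) stood at 131 ± 8.48 FPKM (SD, n = 3) and Atp6v1f (subunit F) at 128 ± 11.8 FPKM in the untreated KspCre controls, and these neighbours did not differ beyond their spread. Atp6ap1, Atp6v1a (the catalytic subunit A), Atp6v0b and Atp6v1e1 followed with means of 83.6 ± 5.45, 79.3 ± 12.7, 75.7 ± 5.36 and 70.0 ± 6.60 FPKM, whose ranges overlapped. Of the intercalated-cell isoforms, Atp6v0a4 (subunit a4) had the highest mean at 63.1 ± 12.9 FPKM and Atp6v1c2 (subunit C2) the lowest at 17.7 ± 2.78 FPKM, which did not differ beyond its spread from Atp6v0d2 at 18.5 ± 2.72 FPKM. The lowest member was Atp6v1g2, the G subunit of neurons, which stayed between 0.819 and 2.25 FPKM in all 42 libraries and below the level of 5 FPKM required for a call. The cohorts were normalised separately, and no difference between cohorts was tested here.

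Loss of Tsc2 raised 12 of the 34 V-ATPase genes in the CaggCreERT2 cohort, 15 in the untreated KspCre cohort and 19 in the vehicle-treated KspCre cohort (edgeR's quasi-likelihood test, Benjamini-Hochberg adjusted p of 0.05 or lower over all genes tested, and a mean of at least 5 FPKM in at least 1 of the groups compared). Over all genes at that level, 23% were called higher in the first cohort, 9.42% in the second and 23.8% in the third. The median log2 fold change of the 34 members was 0.23, 0.42 and 0.46, beside 0.06, -0.01 and 0.00 over all genes at that level. The level of 5 FPKM was met by 32, 33 and 32 members in the 3 cohorts. Dmxl2 and Wdr7 in each cohort, and Tcirg1 in the KspCre cohorts, met it through the Tsc2 KO group alone, so their calls depended on being high there. With the count table's names the CaggCreERT2 count was 6.

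Lower calls were fewer. CaggCreERT2 Tsc2 KO kidneys had 3 members that fell (15.5% of all genes at that level), namely Atp6v0c, Atp6v0e2 and Rogdi, and with the count table's names 2 fell. Summed with the row of its near-identical copy Atp6v0c had a log2 fold change of 1.00 ± 0.10 there (adjusted p = 3.66e-05). With Xist as a covariate 1 fell. No member fell in the untreated KspCre cohort (8.74% of all genes), with 1, the low Atp6v1g2, lower at an unadjusted p under 0.05 and 0 called by DESeq2. Under vehicle 3 members fell (24.6% of all genes), namely Atp6v0a4, Atp6v0e2 and Ncoa7. Leaving out 1 library at a time moved the 3 lower calls of the CaggCreERT2 cohort to between 1 and 6, with 1 without control replicate 3, 1 without Tsc2 KO replicate 1 and 6 without Tsc2 KO replicate 3.

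**Figure D1:**
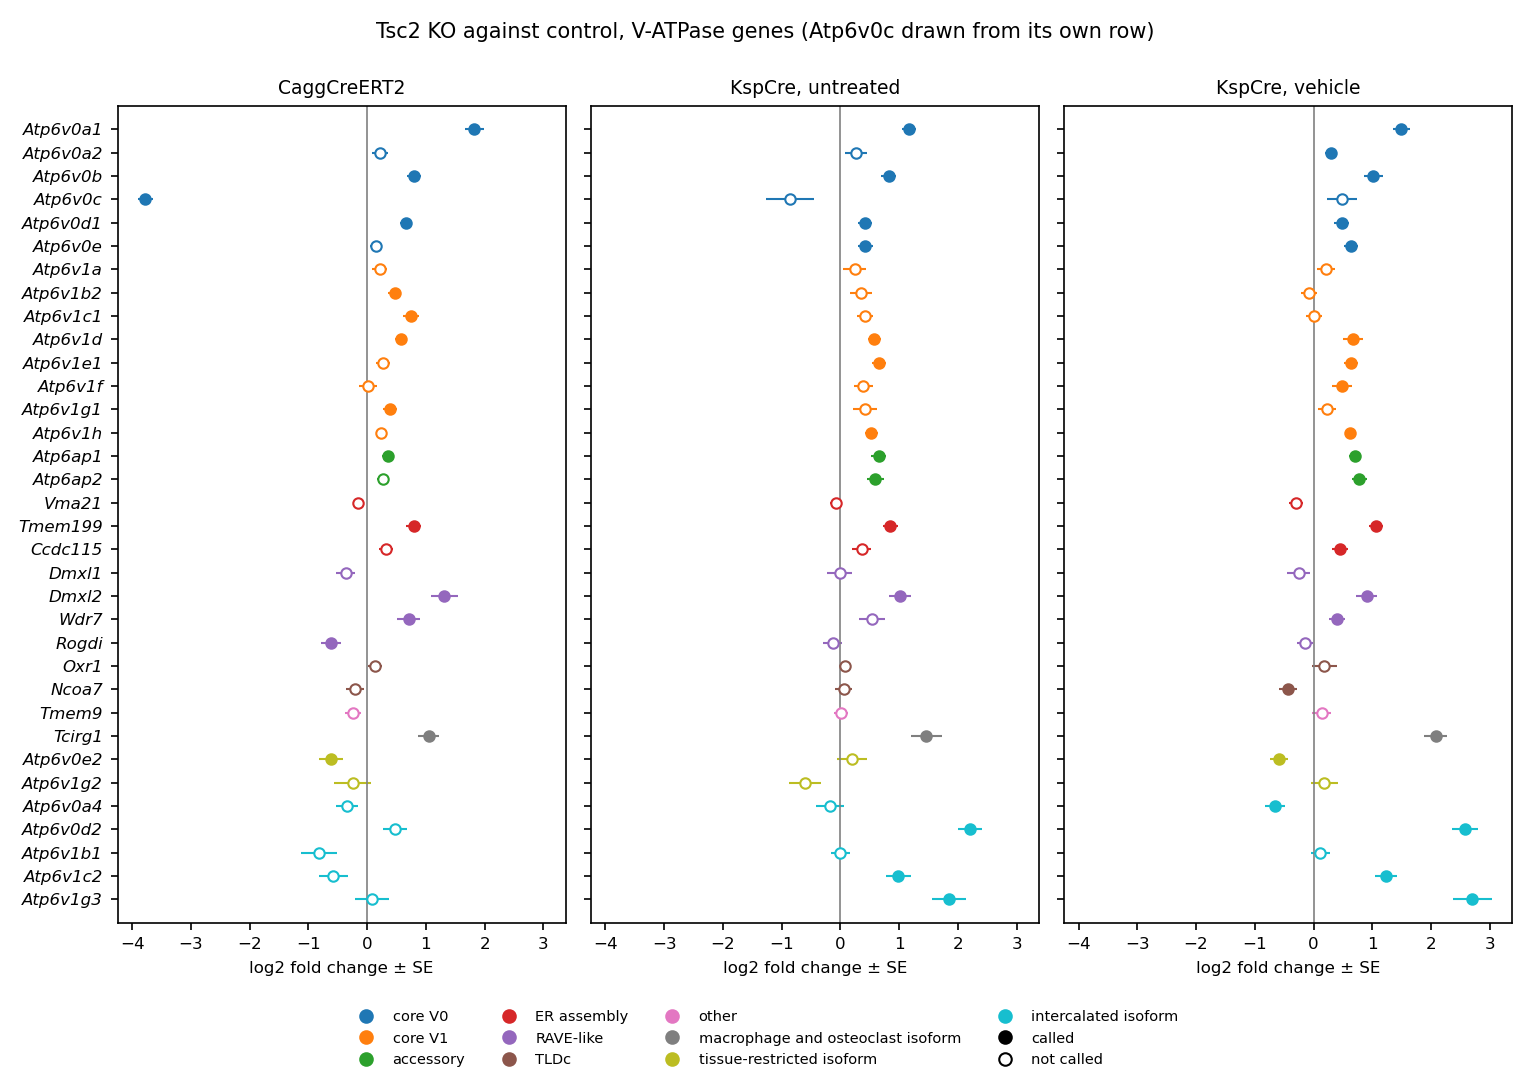
Log2 fold change of each of the 34 genes (x axis, ± SE, 3 libraries per group) in Tsc2 KO relative to control kidneys, with 1 panel per cohort, colours for the class of gene and filled points for genes that passed the test. Most core subunits lie right of 0 in each panel, while the intercalated isoforms at the bottom spread on both sides of 0, up to 0.47 in the CaggCreERT2 panel and 2.70 in the KspCre panels.

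In each of the 3 cohorts 8 genes were called higher, and they came from several classes. They were Atp6v0a1, Tcirg1, Atp6v0b, Atp6v0d1, Atp6v1d, Atp6ap1, Dmxl2 and Tmem199. Another 7 (Atp6v0d2, Atp6v0e, Atp6v1c2, Atp6v1e1, Atp6v1g3, Atp6v1h and Atp6ap2) were called higher in both KspCre cohorts and did not pass in the CaggCreERT2 cohort, and 3 (Atp6v1b2, Atp6v1c1 and Atp6v1g1) passed in the CaggCreERT2 cohort alone. For 12 members no cohort gave a higher call. Over all genes at the level of 5 FPKM, 23%, 9.42% and 23.8% were called higher in the single cohorts. The share of all genes with each of these shared patterns was not counted.

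Among the V0 subunits, Atp6v0a1 (subunit a1, chr11:101009452-101063719 of GRCm38, plus strand) rose in each cohort. It measured 9.55, 8.14 and 9.38 FPKM in the CaggCreERT2 controls and 36.8, 33.5 and 21.5 FPKM in the Tsc2 KO kidneys. It measured 9.95, 10.2 and 10.2 FPKM in the untreated KspCre controls against 23.4, 23.2 and 21.9 FPKM in Tsc2 KO, and 10.1, 8.87 and 10.1 against 33.0, 22.3 and 26.6 FPKM under vehicle. Every Tsc2 KO library lay above every control library of its cohort. The log2 fold changes were 1.83 ± 0.17 (adjusted p = 1.55e-05), 1.17 ± 0.12 (adjusted p = 0.000208) and 1.49 ± 0.15 (adjusted p = 1.27e-06), each with its SE.

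The core V0 genes Atp6v0b, Atp6v0d1, Atp6v0e and Atp6v0a2 had smaller log2 fold changes. Atp6v0b, the c'' proteolipid, measured 80.0, 54.8 and 68.5 FPKM in vehicle control kidneys and 123, 143 and 145 FPKM in vehicle Tsc2 KO kidneys, without overlap. Its log2 fold changes were 0.80 ± 0.12, 0.83 ± 0.13 and 1.02 ± 0.16 (adjusted p = 0.000391, 0.00163 and 0.000138, in cohort order). Atp6v0d1 (subunit d1, of the stalk that links V0 to V1) measured 82.3, 76.4 and 80.2 against 117, 133 and 112 FPKM in the CaggCreERT2 cohort. It measured 70.1, 66.7 and 70.2 against 100.2, 81.2 and 96.1 FPKM in the untreated KspCre cohort and 61.9, 68.1 and 69.6 against 99.3, 87.2 and 91.3 FPKM under vehicle, with all Tsc2 KO libraries above the controls. Its log2 fold changes were 0.66 ± 0.11, 0.42 ± 0.12 and 0.48 ± 0.12 (adjusted p = 0.000753, 0.0329 and 0.00643). Atp6v0e (subunit e1) rose in the KspCre cohorts by 0.43 ± 0.12 and 0.63 ± 0.12 on the log2 scale, and Atp6v0a2 (subunit a2, of the Golgi and endosomes) rose by 0.30 ± 0.09 under vehicle.

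Among the V1 subunits, all 8 had positive log2 fold changes in the CaggCreERT2 and untreated KspCre cohorts, while under vehicle Atp6v1b2 was not positive. In the CaggCreERT2 cohort 4599 of 8090 genes at the level of 5 FPKM were positive, and the share in the untreated KspCre cohort is not given here. Of the 8 subunits, 4, 3 and 4 were called higher in the 3 cohorts (23%, 9.42% and 23.8% of all genes at that level). Atp6v1d (subunit D, the central rotor) was the V1 gene called in each cohort, with log2 fold changes of 0.57 ± 0.10, 0.58 ± 0.11 and 0.68 ± 0.17 (adjusted p = 0.000944, 0.00602 and 0.00488). Atp6v1e1 (subunit E1) and Atp6v1h (the regulatory subunit H) rose in the KspCre cohorts, Atp6v1e1 by 0.66 ± 0.12 and 0.64 ± 0.12 and Atp6v1h by 0.53 ± 0.11 and 0.63 ± 0.10 on the log2 scale. Atp6v1f rose under vehicle by 0.48 ± 0.16. Atp6v1a passed in no cohort, with log2 fold changes of 0.21 ± 0.13, 0.24 ± 0.19 and 0.21 ± 0.16 and adjusted p of 0.232, 0.458 and 0.31.

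The widely expressed paralogs of the intercalated-cell B, C and G subunits passed in the CaggCreERT2 cohort. Atp6v1b2 (subunit B2) measured 68.0, 73.3 and 70.7 FPKM in those controls and 88.8, 98.1 and 94.1 FPKM in the Tsc2 KO kidneys. Atp6v1c1 (subunit C1) measured 20.4, 20.1 and 16.6 against 33.2, 34.3 and 24.5 FPKM, and Atp6v1g1 measured 194, 177 and 186 against 216, 243 and 239 FPKM. No library of the 2 groups overlapped for any of these genes, and the log2 fold changes were 0.47 ± 0.11, 0.75 ± 0.13 and 0.39 ± 0.11 (adjusted p = 0.00668, 0.00143 and 0.0216).

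In the KspCre cohorts the same paralogs did not pass. In the untreated cohort every Tsc2 KO library of each lay above every control, with log2 fold changes of 0.36 ± 0.19, 0.42 ± 0.14 and 0.42 ± 0.20 (adjusted p = 0.243, 0.0669 and 0.202). Atp6v1b2 measured 73.0, 66.9 and 64.7 against 81.0, 76.7 and 105 FPKM untreated and 78.7, 72.4 and 94.9 against 71.4, 76.1 and 85.8 FPKM under vehicle. Atp6v1c1 measured 18.6, 15.6 and 16.6 against 23.3, 19.1 and 25.8 FPKM and 18.6, 22.4 and 20.7 against 19.4, 21.0 and 21.5 FPKM. Atp6v1g1 measured 126, 140.3 and 125 against 187, 164 and 173 FPKM and 146, 103 and 118 against 146, 126 and 158 FPKM. Under vehicle the 95% interval of the log2 fold change was -0.37 to 0.22 for Atp6v1b2, -0.29 to 0.30 for Atp6v1c1 and -0.11 to 0.56 for Atp6v1g1, and the Tsc2 KO and control libraries of all 3 overlapped there.

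The intercalated-cell isoforms did not move as 1 group. In the KspCre cohorts Atp6v0d2, Atp6v1g3 and Atp6v1c2 rose after loss of Tsc2, Atp6v1b1 did not pass, and Atp6v0a4 fell under vehicle. Of the 5, none passed in the CaggCreERT2 cohort with edgeR's quasi-likelihood test, 3 passed at an unadjusted p under 0.05 (50.2% of all genes at that level, in either direction), and their median log2 fold change was -0.35, beside 0.33 for the 14 core subunits. In the untreated KspCre cohort the median was 0.99 for the isoforms and 0.42 for the core, and under vehicle 1.23 and 0.49.

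Atp6v0d2, the d2 subunit of intercalated cells and osteoclasts (chr4:19876841-19922605, minus strand), measured 16.2, 21.5 and 17.8 FPKM in the untreated KspCre controls and 83.4, 111 and 61.8 FPKM in the Tsc2 KO kidneys. Under vehicle it measured 17.4, 23.3 and 26.0 against 159, 136 and 102 FPKM. Each Tsc2 KO library was above the highest control by a wide margin in both, and the log2 fold changes were 2.20 ± 0.20 (adjusted p = 0.000128) and 2.58 ± 0.22 (adjusted p = 2.62e-07). Its CaggCreERT2 levels were 25.4, 24.5 and 30.3 FPKM in controls and 38.3, 26.1 and 42.2 FPKM in Tsc2 KO kidneys, which overlapped, and the 95% interval of the log2 fold change was 0.02 to 0.92 (adjusted p = 0.105).

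Atp6v1g3, the kidney G3 subunit (chr1:138273738-138289462, plus strand), measured 27.3, 33.4 and 22.8 FPKM in untreated KspCre control and 95.9, 144 and 60.8 FPKM in Tsc2 KO kidneys. Under vehicle it measured 34.5, 14.4 and 32.1 against 177, 197 and 154 FPKM, and again all Tsc2 KO libraries lay above all controls. The log2 fold changes were 1.84 ± 0.29 (adjusted p = 0.00177) and 2.70 ± 0.33 (adjusted p = 1.01e-05). The latter was the highest estimate of any member, but it did not differ from that of Atp6v0d2 under vehicle beyond their SEs. Vehicle control replicate 2, at 14.4 FPKM, lay far below the other controls of its group. CaggCreERT2 values were 43.5, 49.5 and 51.6 against 41.7, 35.2 and 70.7 FPKM, with overlap and a 95% interval of -0.54 to 0.72.

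Atp6v1c2 (chr12:17284721-17329359, minus strand) had opposite signs in the cohorts, a difference that was not tested. It measured 17.1, 20.7 and 15.2 FPKM in untreated KspCre controls against 38.4, 44.1 and 22.8 FPKM in Tsc2 KO, and 19.0, 18.5 and 19.9 against 41.8, 50.2 and 42.9 FPKM under vehicle. CaggCreERT2 kidneys gave 26.8, 23.3 and 26.3 FPKM in controls and 12.8, 13.4 and 22.9 FPKM in Tsc2 KO kidneys. The KspCre Tsc2 KO libraries were all above their controls (log2 fold changes of 0.99 ± 0.22 and 1.23 ± 0.19, adjusted p = 0.0111 and 8.43e-05), while the CaggCreERT2 Tsc2 KO libraries were all below theirs without passing (log2 fold change -0.58 ± 0.24, adjusted p = 0.0933). Its row shares 50 exonic bases with Pdia6 on the opposite strand, and the libraries were not stranded.

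Atp6v1b1, the B1 subunit in which mutations cause distal renal tubular acidosis (chr6:83742990-83758855, plus strand), measured 38.0, 35.5 and 32.8 against 31.9, 45.9 and 28.6 FPKM in the untreated KspCre cohort. Under vehicle it measured 34.9, 33.0 and 39.8 against 36.7, 44.4 and 35.6 FPKM. These libraries overlapped, with 95% intervals of the log2 fold change of -0.35 to 0.35 and -0.22 to 0.46. The CaggCreERT2 values were 57.5, 55.6 and 53.4 FPKM in controls and 21.6, 18.2 and 50.5 FPKM in Tsc2 KO kidneys, where all 3 Tsc2 KO libraries were lower, 1 of them only slightly (log2 fold change -0.82 ± 0.30, adjusted p = 0.0583).

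Atp6v0a4, the a4 subunit of the same pump (chr6:38048483-38124586, minus strand), measured 69.5, 88.3 and 91.8 FPKM in vehicle controls and 54.8, 53.3 and 49.6 FPKM in vehicle Tsc2 KO kidneys. All 3 Tsc2 KO libraries were below the controls and the gene fell by 0.66 ± 0.17 on the log2 scale (adjusted p = 0.00643). It measured 77.4, 59.8 and 52.3 against 48.0, 55.3 and 65.5 FPKM in the untreated KspCre cohort and 69.5, 76.7 and 57.9 against 47.0, 42.4 and 64.2 FPKM in the CaggCreERT2 cohort, with overlap in both and log2 fold changes of -0.17 ± 0.24 and -0.35 ± 0.19 that did not pass. Exons of this gene overlap those of Tmem213, itself on the intercalated-cell marker list, by 62 bases on the opposite strand and those of D630045J12Rik by 259 bases on the same strand.

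**Figure D2:**
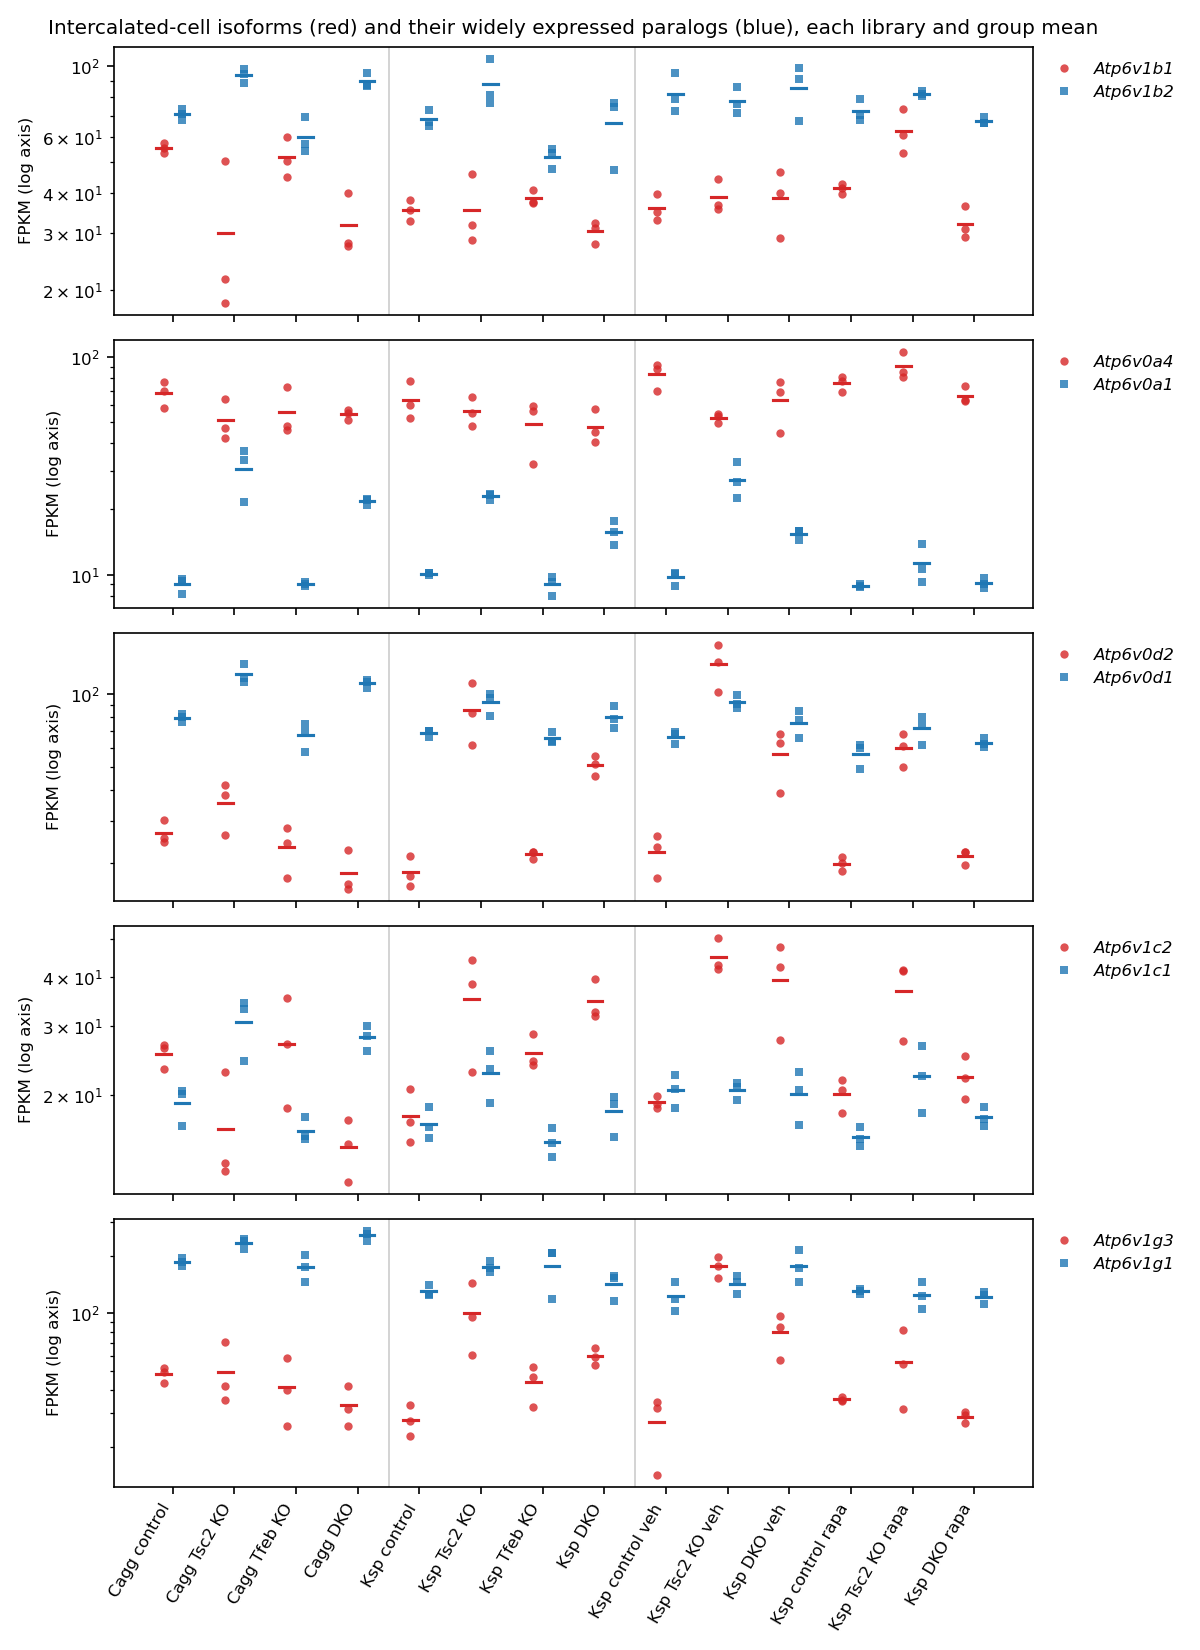
FPKM (log axis) of each intercalated-cell isoform (red) and its widely expressed paralog (blue) in every library of the 14 groups, with a bar at each group mean (n = 3). In the KspCre panels the red points of Atp6v0d2 and Atp6v1g3 climb to or past the blue ones in vehicle Tsc2 KO kidneys (102 to 159 and 154 to 197 FPKM), while Atp6v1b1 stays below Atp6v1b2 in every group.

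Marker genes of intercalated cells other than V-ATPase genes were measured beside these isoforms. The 14 markers summed to 356 to 378 FPKM in CaggCreERT2 controls and 153 to 319 FPKM in Tsc2 KO kidneys, and 6 of 14 fell there (15.5% of all genes at that level), including Insrr (log2 fold change -1.74 ± 0.40, adjusted p = 0.0066), a receptor that senses alkaline pH, and Slc4a9 (-1.48 ± 0.45, adjusted p = 0.0256), an anion transporter of the cells that secrete bicarbonate. In the untreated KspCre cohort 4 of 14 rose (9.42% of all genes) and 2 (Insrr and Slc4a9) fell (8.74%), with sums of 254 to 312 and 270.1 to 458 FPKM. Under vehicle 4 rose and 3 fell, counts near the shares over all genes (23.8% and 24.6%), with sums of 189 to 290.1 and 405 to 546 FPKM. Foxi1, the transcription factor that specifies intercalated cells, rose in both (1.80 ± 0.34 and 2.50 ± 0.20, adjusted p = 0.00504 and 1.77e-07), as did Dmrt2 (2.96 ± 0.42 and 3.51 ± 0.19), a marker of the acid-secreting type. Under vehicle Slc4a9 fell (-2.71 ± 0.23, adjusted p = 2.91e-07) and so did Insrr (-3.15 ± 0.32). The part of cell number in the changes of the V-ATPase isoforms was not tested.

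Tcirg1, the a3 subunit of lysosomes in macrophages and of the ruffled border of osteoclasts (chr19:3896050-3907133, minus strand), rose in each cohort. It measured 6.78, 4.19 and 6.45 against 12.6, 11.3 and 10.5 FPKM in the CaggCreERT2 cohort and 3.37, 4.44 and 4.48 against 11.6, 14.1 and 8.29 FPKM in the untreated KspCre cohort. Under vehicle it measured 4.59, 2.64 and 4.22 against 18.5, 15.8 and 14.1 FPKM. No control overlapped a Tsc2 KO library, and the log2 fold changes were 1.05 ± 0.18 (adjusted p = 0.000964), 1.46 ± 0.26 (adjusted p = 0.00398) and 2.08 ± 0.20 (adjusted p = 8.12e-07). Of 11 macrophage markers, 3 were called higher in the CaggCreERT2 cohort (23% of all genes at that level), 5 under vehicle (23.8%), where 1 was called lower, and none in the untreated KspCre cohort. The 11 markers summed to 83.9 to 103 and 125 to 162 FPKM in CaggCreERT2 control and Tsc2 KO kidneys, to 58.4 to 78.7 and 89.7 to 159 FPKM untreated and to 47.1 to 55.9 and 101 to 163 FPKM under vehicle. A list of 5 osteoclast or activated macrophage genes, 3 of them tested, summed to 31.9 to 37.4 and 15.7 to 32.9, 32.0 to 36.8 and 32.7 to 35.9, and 24.3 to 36.8 and 19.6 to 25.3 FPKM in the same groups. Of these, 1 was called higher and 1 lower under vehicle and none in the other cohorts. The part of both lists in the change of Tcirg1 was not tested.

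Both accessory subunits rose in the KspCre cohorts. Atp6ap1 (Ac45, which guides assembly of V0) changed by 0.66 ± 0.13 and 0.71 ± 0.11 on the log2 scale there and by 0.36 ± 0.10 in the CaggCreERT2 cohort (adjusted p = 0.0065, 8.14e-05 and 0.0181). Atp6ap2 (the prorenin receptor) measured 57.1, 59.0 and 65.6 against 123, 97.6 and 91.5 FPKM under vehicle, without overlap, and changed by 0.60 ± 0.15 and 0.78 ± 0.13 (adjusted p = 0.0218 and 0.000154). In the CaggCreERT2 cohort its log2 fold change of 0.26 ± 0.09 did not pass.

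The assembly factors divided within their own groups. Of the rabconnectin-type factors that load V1 onto V0, Dmxl2 (chr9:54365158-54501626, minus strand) measured 2.74, 3.52 and 3.31 against 9.54, 7.32 and 5.96 FPKM in the CaggCreERT2 cohort. It measured 4.27, 2.97 and 2.90 against 6.27, 6.57 and 7.75 FPKM in the untreated KspCre cohort and 4.24, 5.25 and 4.73 against 8.77, 8.83 and 9.02 FPKM under vehicle. Tsc2 KO libraries were above controls in all 3, with log2 fold changes of 1.32 ± 0.23, 1.02 ± 0.19 and 0.91 ± 0.18 (adjusted p = 0.0013, 0.00509 and 0.000924). Its paralog Dmxl1 passed in none (-0.37 ± 0.16, -0.01 ± 0.21 and -0.25 ± 0.20). Wdr7, their binding partner, rose in the CaggCreERT2 cohort (0.71 ± 0.20, adjusted p = 0.0175, with overlapping libraries) and under vehicle (0.40 ± 0.14, adjusted p = 0.0298). Rogdi, of the same complex, measured 34, 31.4 and 38.7 against 17.1, 21.2 and 26.9 FPKM in the CaggCreERT2 cohort and fell by 0.62 ± 0.17 (adjusted p = 0.0186).

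Of the factors that assemble V0 in the endoplasmic reticulum, Tmem199 (chr11:78507055-78512172, minus strand) rose in each cohort. It measured 10.3, 9.88 and 9.48 against 18.1, 16.0 and 14.9 FPKM, 8.55, 6.78 and 6.88 against 13.5, 13.2 and 13.4 FPKM, and 7.89, 7.59 and 6.55 against 15.7, 14.8 and 15.5 FPKM, in cohort order and without overlap. The log2 fold changes were 0.79 ± 0.13, 0.85 ± 0.13 and 1.06 ± 0.12 (adjusted p = 0.000663, 0.00144 and 7.39e-06). Its partner Ccdc115 rose under vehicle (0.45 ± 0.13, adjusted p = 0.0139), and Vma21 passed in none, with log2 fold changes of -0.16 ± 0.08, -0.08 ± 0.10 and -0.30 ± 0.12. Of the TLDc-domain proteins that bind V1, Ncoa7 fell under vehicle (-0.44 ± 0.16, adjusted p = 0.0395, with overlapping libraries) and Oxr1 passed in none. Tmem9, which interacts with the accessory subunits, passed in no cohort either. Atp6v0e2, a tissue-restricted e subunit, measured 24.1, 23.8 and 22.9 against 12.9, 14.2 and 19.8 FPKM under vehicle and 27.0, 28.1 and 31.0 against 11.2, 23.1 and 19.8 FPKM in the CaggCreERT2 cohort. It was lower in all Tsc2 KO libraries of both and fell by 0.59 ± 0.15 and 0.61 ± 0.20 (adjusted p = 0.00527 and 0.0379).

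Atp6v0c, the c proteolipid of the rotor ring, needs its own account because a processed pseudogene, Atp6v0c-ps2, is nearly identical to it. Atp6v0c lies at chr17:24163866-24169702 (minus strand) and the copy at chr6:37806086-37806550 (plus strand) of GRCm38, and over the copy's 465 bases the transcripts differ at 1 base (99.8% identity). The difference is T111C, with the base of Atp6v0c first, the position counted from 1 at the start of the compared bases and the base of the copy last. Bases 61 to 161 of the comparison (GENCODE transcripts, 5′ to 3′) are shown to let the single difference be seen, with the differing base in capitals.
Atp6v0c: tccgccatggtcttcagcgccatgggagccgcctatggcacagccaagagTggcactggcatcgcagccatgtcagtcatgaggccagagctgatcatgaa
Atp6v0c-ps2: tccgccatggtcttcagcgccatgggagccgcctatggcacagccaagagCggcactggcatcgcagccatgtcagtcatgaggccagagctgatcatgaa

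The division of counts between these rows differed between libraries. Atp6v0c had 1835, 1989 and 1984 counts in the CaggCreERT2 controls and 129, 124 and 139 counts in the Tsc2 KO kidneys, while the copy had 33, 35 and 20 and 3659, 3660 and 3180 counts. The row of Atp6v0c fell by 3.78 ± 0.12 on the log2 scale (adjusted p = 7.43e-09), from 31.6, 30.0 and 33.3 FPKM to 1.94, 2.28 and 2.43 FPKM. The copy took 0.774% to 2.27% of the summed counts in the CaggCreERT2 control and Tfeb KO libraries, 1.46% in KspCre Tfeb KO replicate 1, 55.5% to 57.4% in KspCre control replicate 2 and Tfeb KO replicates 2 and 3, and 88.0% to 96.7% in the other 32 libraries. Within the KspCre Tfeb KO group alone, Atp6v0c ran from 15.3 to 32.0 FPKM. In the CaggCreERT2 cohort the split thus went with the Tsc2 genotype, the copy holding 95.8% to 96.7% in Tsc2 KO and 95.1% to 95.9% in DKO libraries. The KspCre controls also had most of these counts on the row of the copy, 55.9% to 88.3% untreated and 88.0% to 91.9% under vehicle. How reads were assigned between the rows, and why the split went with genotype, was not tested.

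Summed over both rows, the signal rose after loss of Tsc2 in each cohort. In CPM, counts scaled to the library total, it was 98.3, 97.0 and 106 in the CaggCreERT2 controls and 193, 234 and 188 in the Tsc2 KO kidneys. Under vehicle it was 164, 57.1 and 129 against 330.3, 379 and 399 CPM, with control replicate 2 far below the other libraries of its group. The Tsc2 KO libraries were above the controls, and the log2 fold changes of the sum were 1.00 ± 0.10, 0.95 ± 0.14 and 1.39 ± 0.35 (adjusted p = 3.66e-05, 0.0014 and 0.00473, in cohort order). In rapamycin-treated Tsc2 KO kidneys the sum was 203, 65.5 and 141 CPM, a log2 change of -1.22 ± 0.34 from vehicle (adjusted p = 0.0143). The sum was formed after the values had been seen. Atp6v0c-ps2 was the only pseudogene copy of a member (at least 95% identity over at least 250 bases) above 3 FPKM in any library, the next being at 2.62 FPKM.

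**Figure D3:**
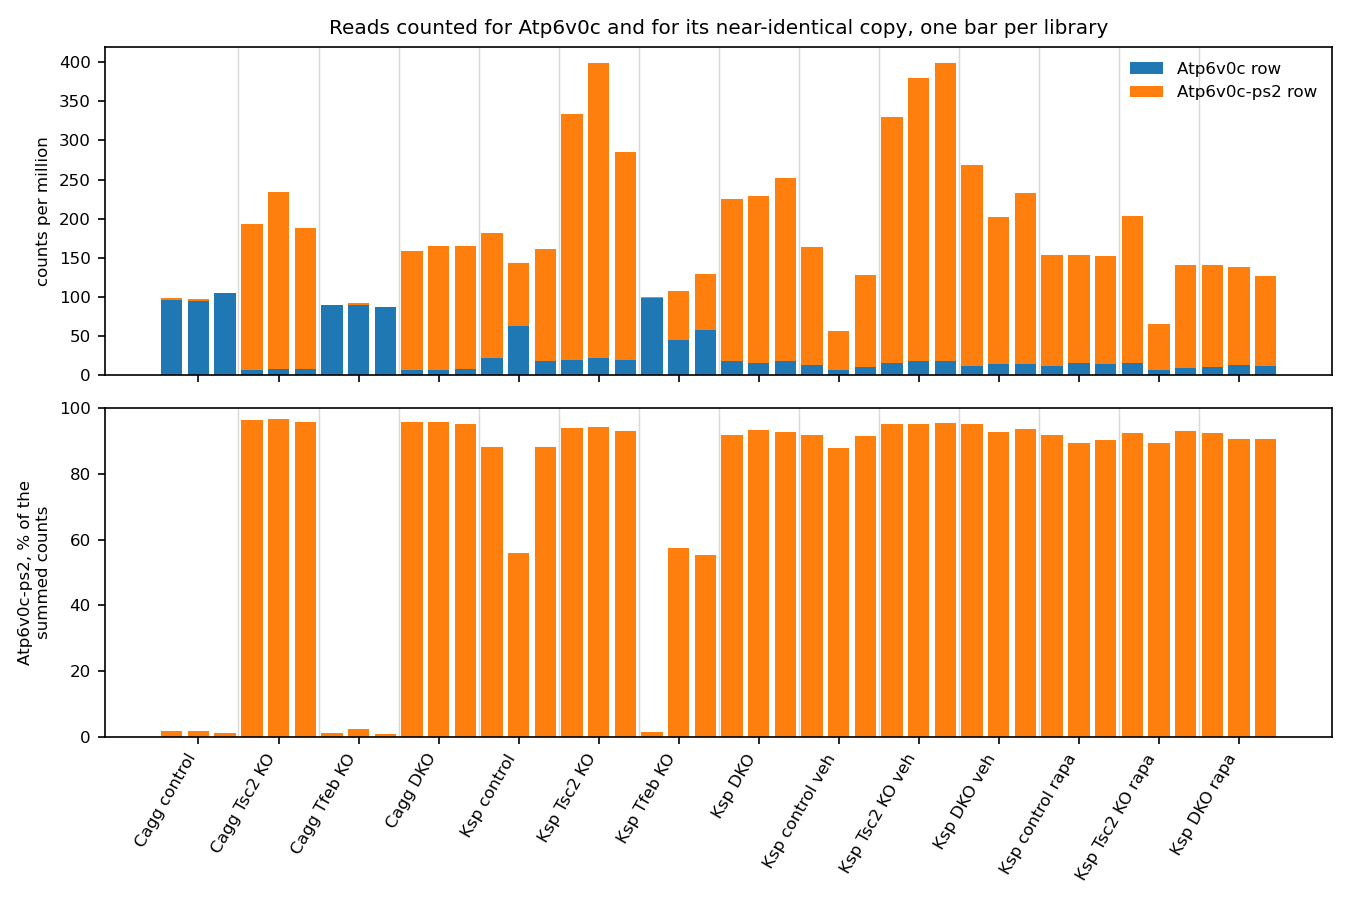
CPM (counts scaled to the library total) on the rows of Atp6v0c (blue) and Atp6v0c-ps2 (orange) in each of the 42 libraries (top), and the percentage of their sum on the row of the copy (bottom). The copy holds 2.27% or less in CaggCreERT2 control and Tfeb KO libraries and 88.0% or more in all libraries of 10 groups, while the height of the summed bar is greatest in Tsc2 KO libraries of the CaggCreERT2 and untreated KspCre cohorts and in vehicle Tsc2 KO libraries of the drug cohort.

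At positions filled by paralogs, the isoform make-up of the transcripts shifted. At subunit d, Atp6v0d2 held 24.9% ± 2.69 (SD, n = 3) of the summed FPKM of Atp6v0d1 and Atp6v0d2 in vehicle control kidneys, 58.4% ± 4.87 in vehicle Tsc2 KO, 42.1% ± 4.17 in vehicle DKO and 45.3% ± 2.50 in rapamycin-treated Tsc2 KO kidneys. The CaggCreERT2 share was 25.1% ± 2.04 in control, 22.8% ± 5.76 in Tsc2 KO and 14.1% ± 2.17 in DKO kidneys. At subunit G, Atp6v1g3 held 20.5% ± 1.93 in control, 17.1% ± 5.14 in Tsc2 KO and 11.3% ± 1.90 in DKO kidneys of the CaggCreERT2 cohort and 17.3% ± 1.89, 35.4% ± 10.5 and 29.5% ± 2.22 in the same groups of the untreated KspCre cohort. It held 17.4% ± 4.72 in vehicle control, 54.8% ± 5.73 in vehicle Tsc2 KO, 30.6% ± 2.47 in vehicle DKO and 29.7% ± 6.56 in rapamycin-treated Tsc2 KO kidneys. These shares of transcript are descriptions, without a test, and say nothing of the protein.

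Subunit a lost share from its intercalated-cell form. Atp6v0a4 held 73.6% ± 3.36 of the 4 a-subunit transcripts in CaggCreERT2 control and 49.3% ± 10.4 in Tsc2 KO kidneys, 72.0% ± 3.68 and 54.7% ± 4.35 in the untreated KspCre cohort, and 77.4% ± 3.77 and 48.4% ± 2.36 under vehicle. Under rapamycin the share was 76.0% ± 1.03 in control and 76.9% ± 3.52 in Tsc2 KO kidneys, which overlapped within their spread. Over vehicle control, vehicle Tsc2 KO and rapamycin Tsc2 KO kidneys, Atp6v0a1 held 9.13% ± 1.35, 25% ± 3.32 and 9.67% ± 2.45 and Tcirg1 held 3.62% ± 1.22, 14.8% ± 1.07 and 3.64% ± 0.792. At subunit B, Atp6v1b1 held 44.0% ± 1.58 in CaggCreERT2 control and 23.4% ± 10.2 in Tsc2 KO kidneys, 34.2% ± 0.529 and 29.0% ± 8.03 in the untreated KspCre cohort, and 30.5% ± 0.900 and 33.4% ± 3.78 under vehicle. At subunit C the mean share of Atp6v1c2 went from 57.2% ± 3.83 to 34.8% ± 11.8 in the CaggCreERT2 cohort, from 50.9% ± 5.33 to 59.7% ± 11.7 untreated and from 48.3% ± 2.74 to 68.5% ± 1.97 under vehicle.

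**Figure D4:**
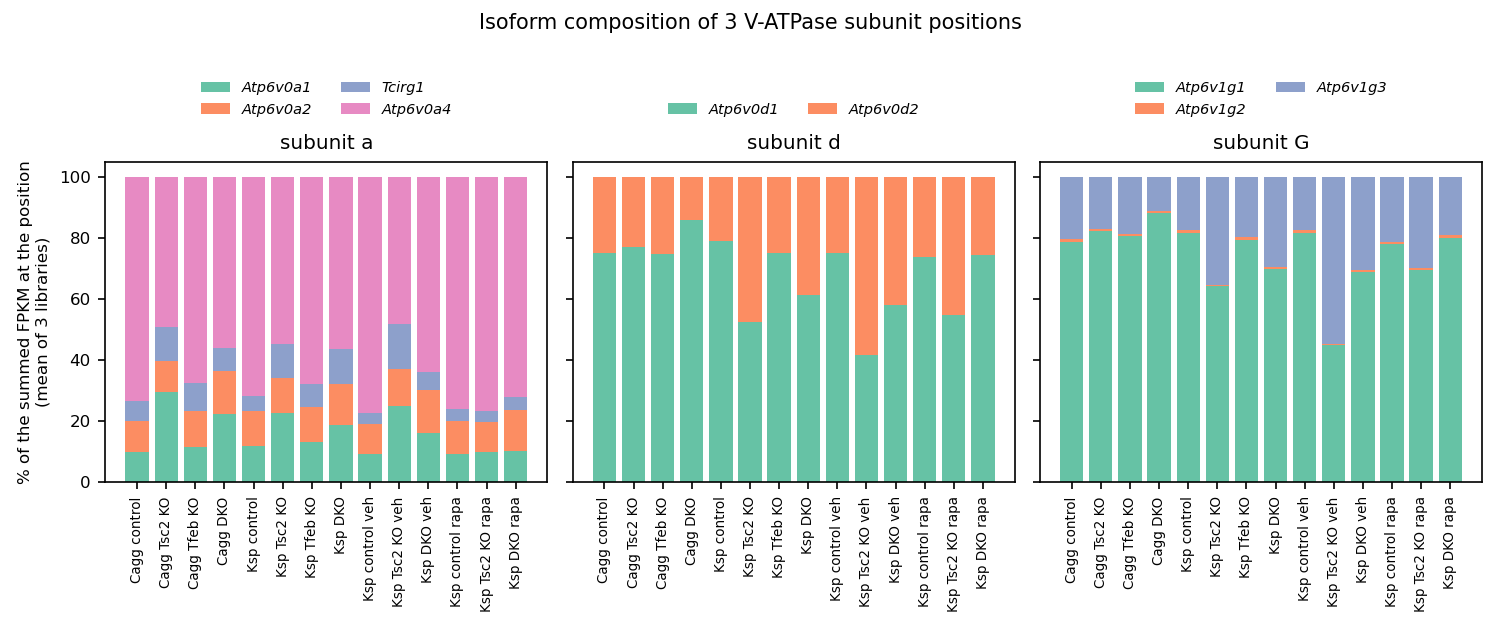
Percentage of the summed FPKM at subunit positions a, d and G held by each isoform (stacked bars, mean of 3 libraries) in the 14 groups. Vehicle Tsc2 KO kidneys have the largest Atp6v0d2 and Atp6v1g3 segments (58.4% and 54.8%) and, in the KspCre cohorts, the smallest Atp6v0a4 segment (48.4%).

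The next comparison asked whether loss of Tfeb on top of Tsc2 changed these genes. Relative to Tsc2 KO, DKO kidneys had 2 members lower in the CaggCreERT2 cohort (7.56% of all genes at that level), 0 in the untreated KspCre cohort (0.169%) and 7 under vehicle (12.6%). With the count table's names the CaggCreERT2 count was 1. In the untreated KspCre cohort 31 of 34 members had a negative log2 fold change, beside 4381 of 7700 genes at that level. There 10 members were lower at an unadjusted p under 0.05 (7.43% of those genes) and 5 were called lower by DESeq2 (2.01%). Atp6v0e2 rose under vehicle (16.9% of all genes), as 25.8, 25.1 and 18.8 FPKM in DKO kidneys against 12.9, 14.2 and 19.8 FPKM in Tsc2 KO, with overlap (log2 fold change 0.57 ± 0.15, adjusted p = 0.0119). These comparisons use the same Tsc2 KO libraries as those above, so the fold changes of the pair are not independent. Median log2 fold changes of the 34 members were -0.08, -0.23 and -0.15, beside -0.04, -0.03 and 0.02 over all genes at that level. Tsc2 itself was higher in vehicle DKO than in vehicle Tsc2 KO kidneys (6.08 ± 0.473 against 4.06 ± 0.357 FPKM, log2 fold change 0.58 ± 0.10, adjusted p = 0.000843). In the CaggCreERT2 and untreated KspCre cohorts it changed by 0.28 ± 0.09 and 0.47 ± 0.14 without passing. The part of a changed share of deleted cells was not tested.

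Under vehicle the genes that fell in DKO kidneys were Tcirg1, Atp6v0d2, Atp6v1g3, Atp6v0a1, Dmxl2, Tmem199 and Atp6v1h. Tcirg1 measured 5.39, 6.06 and 6.18 FPKM in DKO kidneys, below all Tsc2 KO libraries, and fell by 1.46 ± 0.19 (adjusted p = 6.61e-05). Of 11 macrophage markers 4 fell and none rose here (12.6% and 16.9% of all genes). They summed to 101 to 163 FPKM in Tsc2 KO and 59.7 to 66.9 FPKM in DKO kidneys, and their part in the fall of Tcirg1 was not tested. Atp6v0d2 measured 68.0, 38.9 and 62.6 FPKM and fell by 1.23 ± 0.21 (adjusted p = 0.000537), to a level above all 3 vehicle controls. Replicate 2 of this DKO group stood apart, with proximal tubule markers at 1061 FPKM against 1898 and 1730 FPKM in the others. Atp6v1g3 measured 96.4, 57.2 and 85.2 FPKM and fell by 1.14 ± 0.31 (adjusted p = 0.0145), likewise with every library above the controls. Of 14 intercalated-cell markers 4 rose and 4 fell, with sums of 405 to 546 FPKM in Tsc2 KO and 299 to 450 FPKM in DKO kidneys. Their part in these changes was not tested.

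The other calls were smaller. Atp6v0a1 measured 15.9, 14.3 and 15.9 FPKM in vehicle DKO kidneys and fell by 0.83 ± 0.14 (adjusted p = 0.000677), Dmxl2 measured 5.60, 3.74 and 6.18 FPKM and fell by 0.78 ± 0.18 (adjusted p = 0.00546), and Tmem199 measured 12.4, 11.2 and 10.8 FPKM and fell by 0.42 ± 0.12 (adjusted p = 0.0207). Atp6v1h fell by 0.29 ± 0.10 (adjusted p = 0.0405) with overlapping libraries. Atp6v1c2 (47.7, 27.7 and 42.3 FPKM), Atp6v0a4 (76.5, 44.7 and 69.2 FPKM) and Atp6v1b1 (46.6, 29.0 and 40.1 FPKM) did not pass, with 95% intervals of -0.59 to 0.19, -0.09 to 0.64 and -0.35 to 0.33.

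The 2 CaggCreERT2 calls were Tcirg1 and Atp6v0d2. Tcirg1 measured 6.70, 8.77 and 6.68 FPKM in DKO kidneys and fell by 0.66 ± 0.17 (adjusted p = 0.033). Atp6v0d2 measured 15.7, 22.6 and 16.4 FPKM and fell by 0.98 ± 0.21 (adjusted p = 0.0131), with each DKO library below each Tsc2 KO and each control library. No macrophage or intercalated-cell marker was called in this comparison. Macrophage markers summed to 125 to 162 FPKM in Tsc2 KO and 94.3 to 134 FPKM in DKO kidneys, and intercalated-cell markers to 153 to 319 and 203 to 253 FPKM. Leaving out 1 library gave 0 calls without Tsc2 KO replicate 1 or DKO replicate 3 and 1 without Tsc2 KO replicate 2 or DKO replicate 1. Atp6v0a1 measured 22.1, 20.8 and 22 FPKM and did not pass (-0.52 ± 0.16, adjusted p = 0.0581).

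In the untreated KspCre cohort the DKO means of the same genes were lower without passing. Atp6v0d2 measured 45.9, 55.4 and 51.3 FPKM (log2 fold change -0.75 ± 0.19, adjusted p = 0.132) and Atp6v0a1 13.7, 15.6 and 17.6 FPKM (-0.54 ± 0.12, adjusted p = 0.0878), all below the Tsc2 KO libraries. Atp6v1g3 measured 53.6, 59.0 and 66.1 FPKM (-0.75 ± 0.28, adjusted p = 0.29) and Dmxl2 3.20, 4.67 and 4.76 FPKM (-0.70 ± 0.19, adjusted p = 0.149). Tcirg1 measured 12.8, 6.17 and 9.78 FPKM with overlap (-0.24 ± 0.25, adjusted p = 0.775). Macrophage markers of this DKO group ran from 55.9 to 417 FPKM in sum, the widest range of any group.

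**Figure D5:**
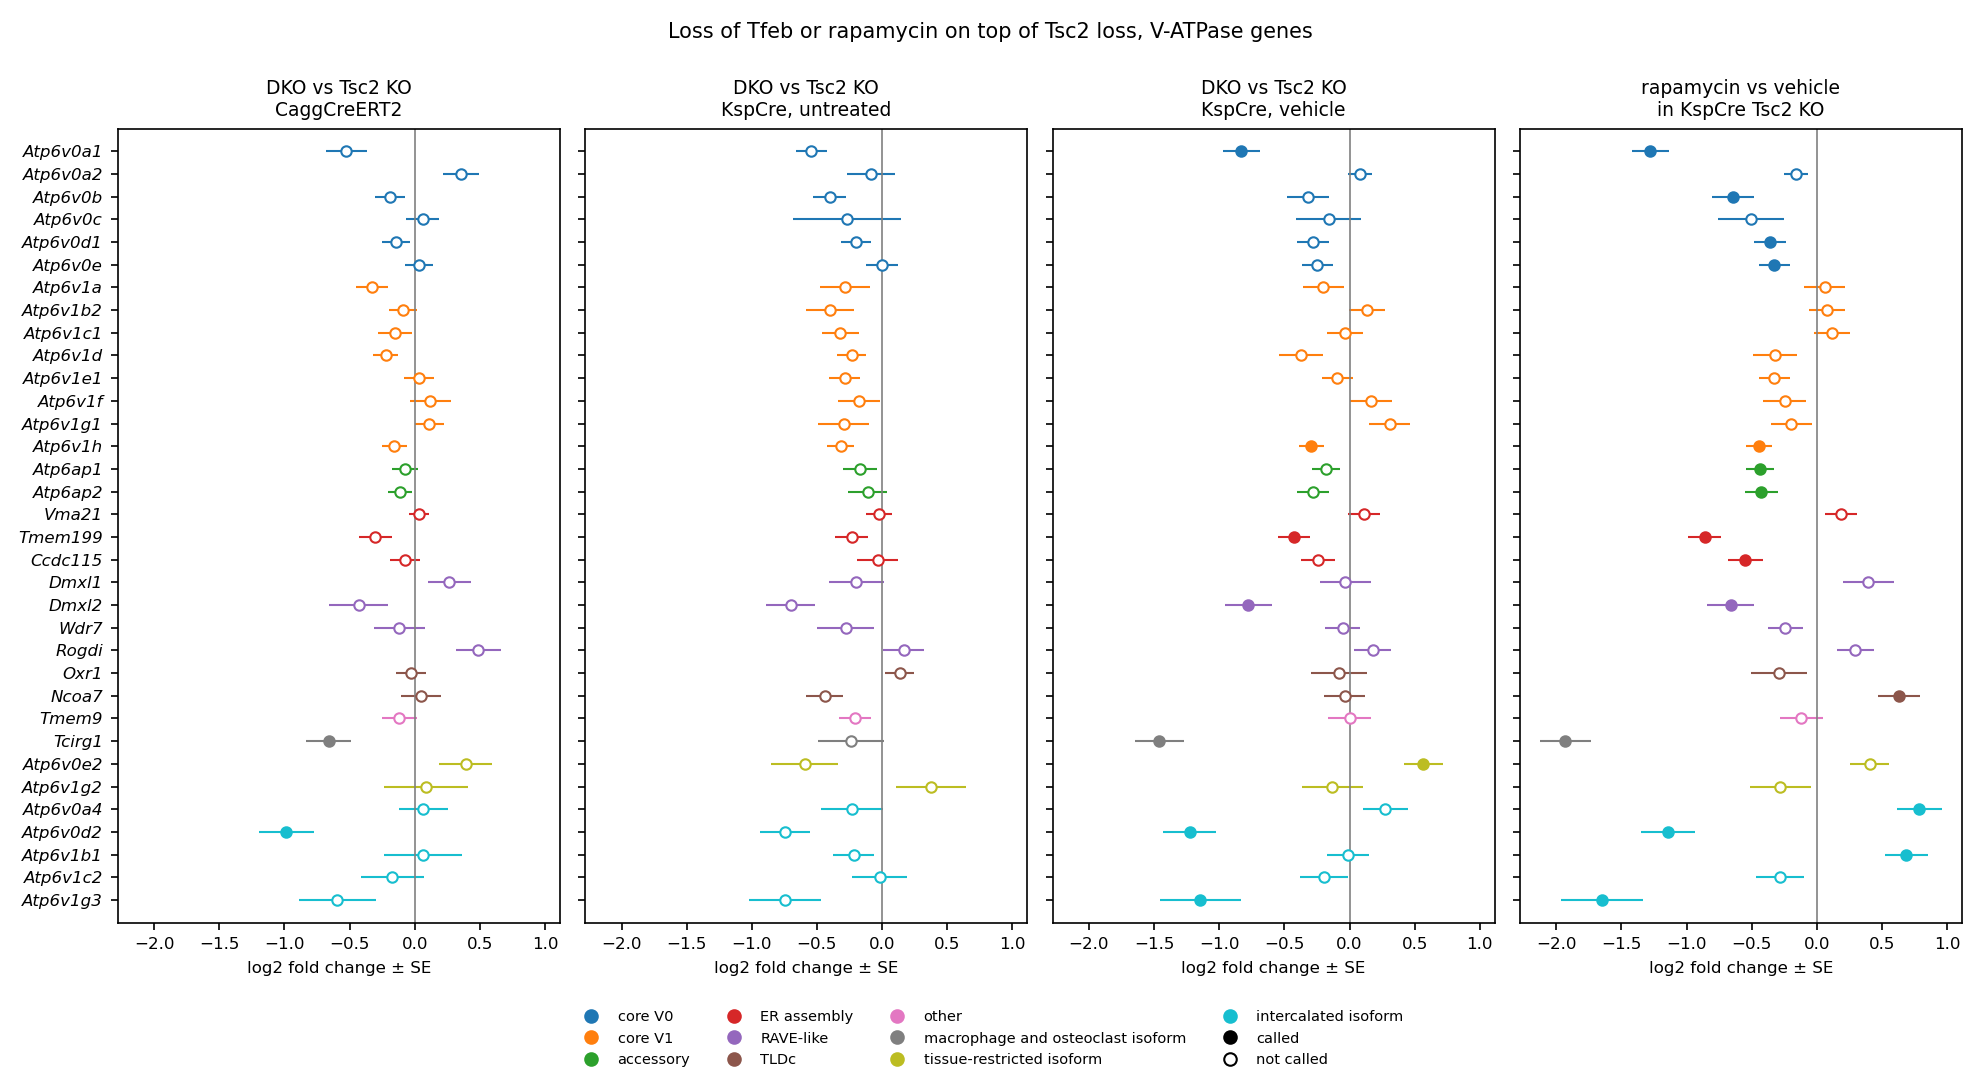
Log2 fold change (x axis, ± SE, 3 libraries per group) of the 34 genes in DKO relative to Tsc2 KO kidneys of the 3 cohorts and in rapamycin relative to vehicle in KspCre Tsc2 KO kidneys, with filled points for genes that passed the test. Atp6v0a1, Tcirg1, Atp6v0d2, Atp6v1g3, Dmxl2 and Tmem199 lie left of 0 in all 4 panels, and Atp6v0a4, Atp6v1b1 and Ncoa7 are called right of 0 in the rapamycin panel.

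Relative to control, DKO kidneys still differed. In the CaggCreERT2 cohort 10 members were higher (10.2% of all genes at that level; 0 with the count table's names). The row of Atp6v0c was called lower (376 of 7950 genes), but summed with the row of its copy it had a log2 fold change of 0.76 ± 0.10 (adjusted p = 0.000605). All of the 10 higher were core subunits or assembly factors, led by Atp6v0a1 (1.30 ± 0.16, adjusted p = 0.000361) and Dmxl2 (0.89 ± 0.23, adjusted p = 0.0296), which met the level of 5 FPKM through the DKO group alone, and all 5 intercalated-cell isoforms had negative log2 fold changes with a median of -0.51. None of the 14 intercalated-cell markers was called here. Their median log2 fold change was -0.61, with sums of 356 to 378 FPKM in control and 203 to 253 FPKM in DKO kidneys. The part of these cells in the isoform values was not tested. Leaving out any 1 library of these groups lowered the count of 10 to between 3 and 6.

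In the untreated KspCre cohort 5 members were higher in DKO kidneys (2.33% of all genes), namely Atp6v0d2 (1.46 ± 0.19), Tcirg1 (1.22 ± 0.26), Atp6v1c2 (0.97 ± 0.22), Atp6v0a1 (0.63 ± 0.12) and Tmem199 (0.62 ± 0.13). Tcirg1 met the level of 5 FPKM through the DKO group alone. DESeq2 called 12 higher (5.76% of all genes) and a fit of only these 2 groups 3. Without control replicate 1, 2 or 3 or DKO replicate 1 or 3 the count was 2, 1, 1, 3 and 1. Under vehicle 11 were higher (5.37%), led by Atp6v1g3 (1.56 ± 0.32, adjusted p = 0.00931), Atp6v0d2 (1.35 ± 0.21, adjusted p = 0.00169) and Atp6v1c2 (1.03 ± 0.19, adjusted p = 0.00485). Without control replicate 2 or 3 or DKO replicate 1 or 3 that count was 5, 5, 6 and 7. Vehicle control replicate 2 and rapamycin Tsc2 KO replicate 2 stood apart in the summed counts of Atp6v0c and its copy, and without them the count was 7, while a fit of only the groups compared gave 3.

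Loss of Tfeb alone called no member. In the CaggCreERT2 cohort edgeR called 0 of 34 (0.0256% of all genes at that level), with 1 at an unadjusted p under 0.05 (7.78%), 0 by DESeq2 and 0 with the count table's names, and the members' median log2 fold change was -0.08. In the untreated KspCre cohort it called 0 of 34 (0% of all genes), with 7 members at that level passing an unadjusted p under 0.05 (11.2% of all genes) and 0 called by DESeq2. There Atp6v1g3 measured 46.6, 52.3 and 32.3 FPKM and Atp6v1c2 24.4, 28.6 and 23.8 FPKM in Tfeb KO kidneys, with 95% intervals relative to control of 0.04 to 1.27 and 0.07 to 1.01. The other isoforms in these groups were Atp6v0d2 at 22.3, 22.3 and 20.8 FPKM, Atp6v0a4 at 32.2, 56.5 and 59.2 FPKM and Atp6v1b1 at 37.4, 37.6 and 41.1 FPKM.

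Whether the effect of Tfeb differed with and without Tsc2 was tested as an interaction. It called 0 members in the CaggCreERT2 cohort (2.13% of all genes at that level) and 0 in the untreated KspCre cohort (0%). At an unadjusted p under 0.05 it gave 4 members in the CaggCreERT2 cohort (21% of all genes) and 9 in the untreated KspCre cohort (11.4%). DESeq2 called 1 in the former (7.9%) and 0 in the latter, and with the count table's names the CaggCreERT2 count was 0.

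Rapamycin lowered 13 of the 34 members in Tsc2 KO kidneys relative to vehicle (17.3% of all genes at that level) and raised 3 (21.2%). A fit of only these 2 groups called 7 lower. The genes that fell were Tcirg1, Atp6v1g3, Atp6v0a1, Atp6v0d2, Tmem199, Dmxl2, Atp6v0b, Ccdc115, Atp6v1h, Atp6ap1, Atp6ap2, Atp6v0d1 and Atp6v0e, and those that rose were Atp6v0a4, Atp6v1b1 and Ncoa7. The median log2 fold change was -0.29 over the members, -0.33 over the 14 core subunits and 0.01 over all genes at that level. The vehicle Tsc2 KO libraries again serve in this comparison as in those above. Tsc2 itself was higher with rapamycin (5.70 ± 0.733 against 4.06 ± 0.357 FPKM, log2 fold change 0.49 ± 0.10, adjusted p = 0.00199), and the part of a changed share of deleted cells was not tested.

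Among the genes that fell, Tcirg1 measured 3.81, 3.87 and 4.99 FPKM with rapamycin, within the range of the vehicle controls but for 1 library, and fell by 1.93 ± 0.19 (adjusted p = 3.22e-06). It met the level of 5 FPKM here through the vehicle Tsc2 KO group alone, so this call depended on being high there. Macrophage markers summed to 47.2 to 74.6 FPKM in these kidneys. Atp6v0a1 measured 9.25, 10.6 and 13.9 FPKM and fell by 1.28 ± 0.15 (adjusted p = 1.04e-05). Tmem199 measured 9.16, 8.08 and 8.01 FPKM and fell by 0.86 ± 0.12 (adjusted p = 9.17e-05). Each of these 3 genes had all rapamycin libraries below all vehicle libraries of Tsc2 KO kidneys.

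The isoforms divided under rapamycin. Atp6v1g3 measured 82.2, 31.6 and 54.3 FPKM and fell by 1.65 ± 0.31 (adjusted p = 0.000942). Atp6v0d2 measured 49.8, 68.5 and 61.0 FPKM and fell by 1.14 ± 0.21 (adjusted p = 0.000596), all below vehicle Tsc2 KO and all above the rapamycin controls at 18.5, 20.1 and 21.1 FPKM. Atp6v1c2 measured 41.5, 27.5 and 41.4 FPKM and did not pass (95% interval -0.68 to 0.10).

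Atp6v0a4 and Atp6v1b1 went the other way. Atp6v0a4 measured 85.3, 105 and 80.9 FPKM with rapamycin and rose by 0.79 ± 0.17 (adjusted p = 0.00274), every library above those of vehicle Tsc2 KO. Atp6v1b1 measured 73.2, 61.0 and 53.4 FPKM and rose by 0.69 ± 0.16 (adjusted p = 0.00447). Intercalated-cell markers summed to 429 to 665 FPKM here, with 6 of 14 higher than under vehicle (21.2% of all genes) and 3 lower (17.3%), Slc4a9 (3.23 ± 0.24) and Insrr (3.25 ± 0.32) among those that rose and Foxi1 (-1.06 ± 0.19) and Dmrt2 (-1.20 ± 0.17) among those that fell, and their part in the isoform changes was not tested. The paralogs Atp6v1b2, Atp6v1c1 and Atp6v1g1 measured 83.4, 81.9 and 80.8, 18.0, 26.6 and 22.3 and 145, 106 and 123 FPKM and did not pass, while Atp6v0d1 measured 61.6, 74.2 and 80.5 FPKM and fell by 0.36 ± 0.12 (adjusted p = 0.0399).

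In control kidneys rapamycin called 0 of 34 members (0.0664% of all genes at that level), with 3 at an unadjusted p under 0.05 (14.5%) and 0 by DESeq2. Atp6v0a1 measured 9.08, 8.74 and 8.88 FPKM and Atp6v1g3 35.4, 36.4 and 35.0 FPKM in those kidneys, and Tcirg1 3.65, 4.21 and 4.48 FPKM. The members' median log2 fold change was -0.13, beside 0.00 over all genes at that level.

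In DKO kidneys rapamycin called 9 members, all lower (7.43% of all genes, in either direction). They were Atp6v0d2, Atp6v1g3, Atp6v1c2, Atp6v0a1, Atp6v0b, Atp6v1e1, Atp6ap1, Atp6ap2 and Atp6v1h, and all 14 core subunits had negative log2 fold changes with a median of -0.37, beside -0.02 over all genes at that level. Atp6v0d2 measured 22.3, 22.2 and 19.7 FPKM and fell by 1.40 ± 0.21 (adjusted p = 0.00121). Atp6v1g3 measured 29.4, 30.7 and 26.6 FPKM and fell by 1.46 ± 0.31 (adjusted p = 0.0141), and Atp6v1c2 measured 25.1, 22.2 and 19.6 FPKM and fell by 0.82 ± 0.19 (adjusted p = 0.0188). All rapamycin libraries of these genes lay below all vehicle DKO libraries. Of the 14 intercalated-cell markers none rose and 3 fell here, with sums of 299 to 450 FPKM on vehicle and 279 to 327 FPKM on rapamycin. Their part in the falls of the isoforms was not tested. Without vehicle replicate 1 or rapamycin replicate 2 or 3 of DKO the count of 9 was 5, 5 and 4, and DESeq2 called 15 (12.4% of all genes, in either direction).

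With both genotypes on rapamycin, 3 members were higher in Tsc2 KO than in control kidneys (0.821% of all genes, in either direction). They were Atp6v0d2 (1.59 ± 0.21, adjusted p = 0.00186), Atp6v1c2 (0.87 ± 0.19, adjusted p = 0.0448) and Atp6ap1 (0.49 ± 0.11, adjusted p = 0.0482). No core subunit passed. Positive log2 fold changes were seen for 25 of 34 members, beside 3870 of 7555 genes at that level, and 17 members at that level were higher at an unadjusted p under 0.05 (9.31% of those genes). DESeq2 called 9 higher (1.77%). Atp6v1b1 was higher in all 3 Tsc2 KO libraries without passing (0.59 ± 0.16, adjusted p = 0.128), and Tcirg1 was at 0.04 ± 0.19. The count was 1 without control replicate 1, 2 or 3 or Tsc2 KO replicate 3. It was also 1 in a fit of only the groups compared and with the replicate number as a block. Of 14 intercalated-cell markers 5 rose and none fell here, with sums of 281 to 352 FPKM in control and 429 to 665 FPKM in Tsc2 KO kidneys. Their part in the calls of Atp6v0d2 and Atp6v1c2 was not tested.

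The rapamycin effect in Tsc2 KO kidneys was then set against that in control kidneys in 1 test of the difference, which called 9 of 34 members, a share no greater than that of all genes (29.8%, in either direction), and 5 without the same 2 libraries that stood apart. It was lower for Atp6v1g3 (difference of log2 fold changes -2.05 ± 0.44, adjusted p = 0.00403), Tcirg1 (-2.04 ± 0.27, adjusted p = 0.000111), Atp6v0a1 (-1.16 ± 0.20, adjusted p = 0.00106), Tmem199 (-1.01 ± 0.18), Atp6v0d2 (-0.99 ± 0.29) and Atp6v0b (-0.68 ± 0.23). It was higher for Atp6v0a4 (0.92 ± 0.24), Ncoa7 (0.90 ± 0.22) and Dmxl1 (0.82 ± 0.28). Set against the effect in DKO kidneys, 2 members differed (11% of all genes), Tcirg1 (-1.33 ± 0.27, adjusted p = 0.00755) and Atp6v1b1 (0.95 ± 0.23, adjusted p = 0.0201). Tcirg1 met the level of 5 FPKM in these tests through vehicle groups alone. Atp6v1b1 measured 30.9, 36.5 and 29.2 FPKM in DKO kidneys on rapamycin, below all 3 Tsc2 KO libraries on rapamycin. Without DKO vehicle replicate 1 or 3 or DKO rapamycin replicate 3 the count of 2 was 1, and without DKO vehicle replicate 2 it was 4.

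Other genes of the lysosome and of acid-base transport were counted in the same comparisons. Over all genes at that level, 23%, 9.42% and 23.8% were called higher and 15.5%, 8.74% and 24.6% lower after loss of Tsc2 in cohort order, and 21.2% higher and 17.3% lower with rapamycin in Tsc2 KO kidneys. Of 22 lysosomal hydrolases and membrane proteins, whose lumen the V-ATPase acidifies, 19 rose in CaggCreERT2 Tsc2 KO kidneys, 15 in untreated KspCre and 16 under vehicle, with none lower, and 13 fell with rapamycin in Tsc2 KO kidneys. Their median log2 fold changes were 1.05, 0.78, 0.93 and -0.80. Relative to Tsc2 KO, 6, 0 and 8 of them were lower in DKO kidneys in the 3 cohorts (7.56%, 0.169% and 12.6% of all genes).

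Of 13 genes of the machinery that docks mTORC1 beside the V-ATPase, 6, 4 and 4 rose in Tsc2 KO kidneys and 2, 0 and 2 fell, and under vehicle these counts were near the shares over all genes (23.8% and 24.6%) or below them. Rragd, a Rag GTPase, rose by 1.16 ± 0.14, 1.51 ± 0.18 and 1.45 ± 0.20 (adjusted p = 9e-05, 0.000511 and 3.04e-05) and Rragc by 1.09 ± 0.10, 0.69 ± 0.11 and 0.83 ± 0.14 (adjusted p = 1.41e-05, 0.0017 and 0.000206). Lamtor5, a Ragulator subunit, fell under vehicle (-0.89 ± 0.11, adjusted p = 8.07e-06). With rapamycin in Tsc2 KO kidneys 4 of the 13 fell and 1 rose. Of 11 renal acid-base genes that work beside the plasma membrane V-ATPase, none rose and 6 fell in the CaggCreERT2 cohort, 0 rose and 1 fell untreated, 1 rose and 4 fell under vehicle, and 5 rose with rapamycin in Tsc2 KO kidneys. Car4, a membrane carbonic anhydrase, fell in each cohort (-2.18 ± 0.22, -1.69 ± 0.15 and -1.89 ± 0.19).

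Markers of other tubule cells were measured in the same kidneys. The 8 proximal tubule genes summed to 1985 to 2216 FPKM in CaggCreERT2 control and 451 to 968 FPKM in Tsc2 KO kidneys, to 1804 to 2125 and 762 to 1479 FPKM untreated, to 1786 to 2090.4 and 399 to 634 FPKM under vehicle and to 1654 to 2085 FPKM in Tsc2 KO kidneys on rapamycin. Of 8 principal cell markers, 7 of them tested, 4, 5 and 3 fell in Tsc2 KO kidneys in cohort order (15.5%, 8.74% and 24.6% of all genes), 1 rose under vehicle and 3 rose with rapamycin in Tsc2 KO kidneys (21.2%). Of 5 markers of the thick limb and distal convoluted tubule, 4, 3 and 4 fell and 4 rose with rapamycin, beside the same shares. They summed to 1317 to 1608 FPKM in CaggCreERT2 control and 784 to 924 FPKM in Tsc2 KO kidneys. The sums were 1535 to 1713 and 2026 to 2216 FPKM untreated, higher in Tsc2 KO although 3 of the genes fell, and 1320 to 1818 and 1046 to 1961 FPKM under vehicle. Of 5 cell division genes, 2, 0 and 1 rose (23%, 9.42% and 23.8% of all genes), with median log2 fold changes of 0.50, 3.11 and 4.16, and 1 fell with rapamycin (17.3%; median -3.50). The part of these cells in the changes of the V-ATPase genes was not tested.

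Promoter windows (RefSeq, GRCm38.p6, 250 bases before to 50 after the start) were matched for 25 of the 34 members and were searched on both strands. CACGTG, the core read by TFEB and other basic helix-loop-helix factors, was in 6 of the 25 (24%; 8.09% of 27025 genes), namely Atp6v0b, Atp6v0d1, Atp6v0e, Atp6v1a, Ccdc115 and Vma21. The longer TCACGTGA was in 4 (16%; 1.12% of genes) and GTCACGTG in 4 (2.55% of genes), and both contain CACGTG. The forkhead cores TGTTTAC and TGTTTGC were in 1 member, Atp6v1b1, and in none (4.05% and 5.76% of genes). A match is a description of these letters in this window. The responses of genes with and without these letters were not compared. The windows of Atp6v0b (chr4:117887280-117887579, minus strand), Atp6v0d1 (chr8:105566015-105566314, minus strand) and Atp6v1a (chr16:44139210-44139509, minus strand) are shown because they hold the same core, with CACGTG in capitals.
Atp6v0b: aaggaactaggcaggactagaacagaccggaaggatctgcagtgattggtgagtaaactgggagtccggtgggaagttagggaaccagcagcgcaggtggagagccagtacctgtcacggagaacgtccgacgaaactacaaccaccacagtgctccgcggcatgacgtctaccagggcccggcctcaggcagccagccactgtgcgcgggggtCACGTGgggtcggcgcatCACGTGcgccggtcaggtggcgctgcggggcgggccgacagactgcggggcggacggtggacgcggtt
Atp6v0d1: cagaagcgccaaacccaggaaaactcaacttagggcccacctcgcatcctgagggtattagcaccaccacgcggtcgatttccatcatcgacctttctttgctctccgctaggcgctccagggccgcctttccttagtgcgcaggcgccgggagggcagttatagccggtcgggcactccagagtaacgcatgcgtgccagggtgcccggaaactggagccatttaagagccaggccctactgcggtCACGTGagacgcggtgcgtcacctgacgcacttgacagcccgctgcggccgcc
Atp6v1a: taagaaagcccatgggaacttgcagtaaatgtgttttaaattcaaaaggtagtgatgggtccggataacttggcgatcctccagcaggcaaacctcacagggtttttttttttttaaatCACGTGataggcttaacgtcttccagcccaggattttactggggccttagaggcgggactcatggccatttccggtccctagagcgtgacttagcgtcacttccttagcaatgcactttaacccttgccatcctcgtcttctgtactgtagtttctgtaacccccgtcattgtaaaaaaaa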

How the data were processed

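Kidney RNA of 42 mouse libraries was analysed from tables the authors deposited, 1 count table and 1 FPKM table for each of 3 cohorts. The counts were deposited as whole numbers of reads per gene, not normalised, and the FPKM values were computed by the authors per gene length and mapped reads. The submitters' processing notes name STAR 2.6.1d, HISAT2 2.0.5, featureCounts 1.5.0-p3, DESeq2 1.20.0 and the mm10 genome, and the libraries were not stranded.

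Counts were tested with edgeR 4.0.16 (quasi-likelihood test, TMM scaling, filterByExpr) in R 4.3.3, with all groups of a cohort in 1 fit and Benjamini-Hochberg adjustment over all genes tested. A call needed both an adjusted p no greater than 0.05 and a mean of at least 5 FPKM in 1 of the groups compared. DESeq2 1.42.0, other filters, a replicate block and libraries left out served as alternatives. The edgeR fit alone was tested on simulated counts, for the comparison of Tsc2 KO with control in each cohort. Near copies were found with blastn 2.17.0 (at least 95% identity over at least 250 bases), and tables were handled in Python 3.11.15 with pandas 2.3.3. Library totals of 14926050 to 22807605 counts set the precision.

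Members named in full were the 5 intercalated-cell isoforms and their 5 paralogs and the 3 largest called changes per cohort. Up to 6 members per comparison were added that were called with loss of Tsc2 and called in the opposite direction in DKO relative to Tsc2 KO or with rapamycin. These were thus chosen for reversal, from comparisons that share the Tsc2 KO libraries. At most 3 genes of any other list were named, and further members were given by class. The members and lists were chosen with earlier results of these data known. Nothing in the labels says that replicates came from separate litters or days, so p-values measure the spread between these samples. In the CaggCreERT2 cohort 4 libraries were matched between the tables by their values, since their names disagreed, and groups follow the FPKM table.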

Additional observations from a re-analysis of the deposited data

Results flagged for a closer look

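The effect of rapamycin differed between Tsc2 KO and control kidneys for 9 of 34 members (edgeR's quasi-likelihood test of the difference, Benjamini-Hochberg adjusted), a share no greater than that of all genes at that level (29.8%), and for 5 without vehicle control replicate 2 and rapamycin Tsc2 KO replicate 2. The difference of log2 fold changes was -1.16 for Atp6v0a1, -2.04 for Tcirg1, -0.68 for Atp6v0b, -0.99 for Atp6v0d2, -2.05 for Atp6v1g3 and -1.01 for Tmem199. It was 0.92 for Atp6v0a4, 0.82 for Dmxl1 and 0.90 for Ncoa7. Between Tsc2 KO and DKO kidneys it differed for Tcirg1 (-1.33) and Atp6v1b1 (0.95).

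Atp6v1c2 had opposite signs with loss of Tsc2 in different cohorts, with every library of a Tsc2 KO group on 1 side of its controls. Its log2 fold change was -0.58 in the CaggCreERT2 cohort, which did not pass (adjusted p = 0.0933), 0.99 in the untreated KspCre cohort and 1.23 under vehicle, and the differences between cohorts were not tested. The row of Atp6v0c changed by -3.78 in the CaggCreERT2 cohort and stood at 0.49 under vehicle, where it did not pass (adjusted p = 0.137), and the difference was not tested. Its near-identical copy Atp6v0c-ps2, a row outside the 34 members, had a signal of at least 400 FPKM in each CaggCreERT2 Tsc2 KO library, where the controls had 2.45 to 4.14 FPKM.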

How the results depend on the processing

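Of 194 recounts of called members over 22 counts, 172 stayed within 1.5 times the reported value and 22 did not. Under the count table's library names, 6 members rose with loss of Tsc2 in the CaggCreERT2 cohort, 1 fell in DKO relative to Tsc2 KO and 0 were higher in DKO than in control. Those names place 2 libraries in groups that their Tsc2 level did not match. With no filter on low counts the lower calls in CaggCreERT2 Tsc2 KO numbered 5, those in DKO relative to Tsc2 KO 4 and the Tfeb interaction calls 2. With Xist as a covariate the lower calls in CaggCreERT2 Tsc2 KO numbered 1. DESeq2 gave 1 Tfeb interaction call (CaggCreERT2), 5 lower in KspCre DKO relative to Tsc2 KO, 12 higher in KspCre DKO relative to control, 15 for rapamycin in DKO and 9 for Tsc2 KO relative to control on rapamycin. Fitting only the groups compared gave 3 higher in untreated and 3 in vehicle DKO relative to control, 7 lower with rapamycin in Tsc2 KO, 1 for Tsc2 KO relative to control on rapamycin and 1 for Tsc2 KO against DKO in the effect of rapamycin, and a floor of 5 FPKM in every library also gave 1 for the last. Further alternatives were chosen after seeing the data. Leaving out vehicle control replicate 2 and rapamycin Tsc2 KO replicate 2 gave 7 higher in vehicle DKO relative to control and 5 for the rapamycin effect in Tsc2 KO against control, and summing Atp6v0c with its copy turned its CaggCreERT2 log2 fold change to 1.00. The cause of these changes was not tested.

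With the replicate number as a block, 1 member fell in CaggCreERT2 DKO relative to Tsc2 KO and 1 was called between Tsc2 KO and control on rapamycin, and no other count moved past 1.5 times. Deviations of same-numbered libraries of different groups correlated over 0.1 in 3 of 18, 4 of 18 and 9 of 45 pairs of the 3 cohorts. Their median correlations were 0.00881, -0.0400 and -0.00502, beside 0.00891, -0.00248 and 0.0199 for differently numbered libraries. The numbers thus gave no sign of pairing, but this check cannot exclude shared litters or days, on which the labels are silent.

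Leaving out 1 library at a time gave these ranges. With loss of Tsc2, the CaggCreERT2 counts ran from 9 to 13 higher and 1 to 6 lower, the untreated KspCre counts from 12 to 14 and 0 to 0, and the vehicle counts from 16 to 18 and 2 to 4. In DKO relative to Tsc2 KO the lower calls ran from 0 to 3, 0 to 0 and 5 to 7, and in DKO relative to control the higher calls from 3 to 6, 1 to 4 and 5 to 12. Rapamycin gave 9 to 12 lower in Tsc2 KO, 0 to 0 in control and 4 to 12 in DKO. The calls between Tsc2 KO and control on rapamycin ran from 1 to 4, and the rapamycin effect in Tsc2 KO from 6 to 11 against control and 1 to 4 against DKO. Tfeb KO alone gave 0 in both cohorts, and the Tfeb interaction 0 to 2, with 2 without CaggCreERT2 Tsc2 KO replicate 3. Of 457 recomputed log2 fold changes of named members, 417 kept their direction and call, 39 kept their direction and lost the call and 1 reversed.

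With 3 libraries a group, a p that misses the threshold does not show equal levels, and exon overlaps in unstranded libraries and the split of Atp6v0c reads limit single genes.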
